A study of Mus musculus with 48 samples.

Results

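The plaque-associated microglia genes are 9 genes, Cst7, Itgax, Clec7a, Spp1, Gpnmb, Igf1, Cd63, Cd9 and Lgals3, out of 48709 genes with a read count in brain tissue of 46 mice. The genes were chosen by symbol, with earlier results on these same amyloid mice in view, so their levels and fold changes with amyloid are given as a description and carry no p-value. Fmn2, which encodes the actin nucleator formin 2, is the gene under study, and the amyloid mice were sequenced beside Fmn2 mutant mice. Male mice of the C57BL/6J strain were used. Without an amyloid transgene, the dentate gyrus (DG) of the hippocampus was taken from wild type mice (5 of 3 months and 3 of 8 months, written Fmn2+/+ here) and from mice labelled FMN2 knock out (5 of each age, written Fmn2-/- here), in which Fmn2 is disrupted in every tissue from conception on. A cross of the Fmn2 mutant with the APPPS1-21 line gave 16 mice labelled 3 months and dentate gyrus, 7 of them labelled FMN2-/-_APP and 9 labelled FMN2 +/+ APP. A further 6 mice labelled APP and 6 labelled wild type were 4 months old. Their tissue label also reads dentate gyrus, while their titles name the prefrontal cortex (PFC). APPPS1-21 mice carry human mutant amyloid precursor protein and presenilin 1 under the neuronal Thy1 promoter, so the amyloid peptide is made by neurons that overexpress both proteins and not by the mouse genes alone.

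Microglia are the resident macrophages of the brain. Around amyloid plaques they leave their resting state and switch on a set of genes for phagocytosis, lysosomal breakdown, adhesion and secreted signals, a state known as plaque-associated or disease-associated microglia, much of which depends on the receptor Trem2. Among the 9 genes, Clec7a and Itgax encode surface receptors, Spp1, Igf1 and Lgals3 encode secreted proteins, Gpnmb, Cd63 and Cd9 encode membrane proteins of the cell surface and the endosomal and lysosomal system, and Cst7 encodes an inhibitor of lysosomal proteases.

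Mouse promoters are shown for 4 of the genes: Cst7, Itgax and Clec7a, which had the lowest levels in the dentate gyrus without amyloid and the highest fold changes in the PFC-titled APP mice, and Gpnmb as a lysosome-linked member. Each runs from 250 bases before to 50 bases after the transcription start in RefSeq for the GRCm38.p6 build, on the strand of the gene. Capitals mark matches to the letters GAGGAA, the core recognised by the myeloid factor PU.1, or TGANTCA, the AP-1 site, searched on both strands. The start site is position 0.
Cst7, chr2:150570165-150570464, plus strand: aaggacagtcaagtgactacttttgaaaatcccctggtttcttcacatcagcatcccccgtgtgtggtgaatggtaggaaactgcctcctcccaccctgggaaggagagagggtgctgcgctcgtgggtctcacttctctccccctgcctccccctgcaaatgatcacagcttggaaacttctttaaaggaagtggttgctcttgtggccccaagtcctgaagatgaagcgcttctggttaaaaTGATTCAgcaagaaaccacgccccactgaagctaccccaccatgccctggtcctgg
Itgax, chr7:128129300-128129599, plus strand: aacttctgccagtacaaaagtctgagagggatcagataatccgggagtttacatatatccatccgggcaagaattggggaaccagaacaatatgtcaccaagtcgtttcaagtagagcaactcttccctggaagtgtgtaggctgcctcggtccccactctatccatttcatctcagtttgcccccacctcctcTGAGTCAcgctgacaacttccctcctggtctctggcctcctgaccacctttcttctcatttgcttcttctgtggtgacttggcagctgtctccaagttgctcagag
Clec7a, chr6:129472730-129473029, minus strand: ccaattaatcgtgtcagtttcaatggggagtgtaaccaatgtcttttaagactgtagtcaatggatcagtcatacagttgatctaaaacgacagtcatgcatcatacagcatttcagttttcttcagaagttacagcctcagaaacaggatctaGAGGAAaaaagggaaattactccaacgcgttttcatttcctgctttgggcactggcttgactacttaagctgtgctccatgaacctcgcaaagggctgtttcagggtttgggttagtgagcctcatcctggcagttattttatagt
Gpnmb, chr6:49036268-49036567, plus strand: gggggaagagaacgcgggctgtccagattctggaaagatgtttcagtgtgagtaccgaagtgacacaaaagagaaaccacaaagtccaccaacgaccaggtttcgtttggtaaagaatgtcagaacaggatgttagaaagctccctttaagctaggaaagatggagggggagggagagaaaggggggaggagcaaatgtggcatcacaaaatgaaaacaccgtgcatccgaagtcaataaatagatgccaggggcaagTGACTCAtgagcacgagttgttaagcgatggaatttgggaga
All 9 genes matched the promoter table, with 11 windows in all, since Clec7a and Spp1 have 2 each. An AP-1 match lay from -6 to 0 in Cst7, from -56 to -50 in Itgax, from 8 to 14 in Gpnmb and from -37 to -31 in Igf1, and thus in 4 of the 9 genes, against 8.97% of 27025 mouse genes. The PU.1 core lay from -96 to -91 in the Clec7a window shown, and also occurred in Spp1, Igf1 and Cd63, again 4 of 9 genes against 31.3% of all genes. The letters CACGTG, an E-box of the kind read by the lysosomal regulators Tfeb and Mitf, were in no window of the 9 genes and in 8.09% of all genes. Cd9 and Lgals3 held none of the 3 motifs. A match describes letters and not a bound site.

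The counts were read on whole genes of the mm10 genome. Cst7 (ENSMUSG00000068129, chr2:150570415-150578944), Itgax (ENSMUSG00000030789, chr7:128129547-128150657), Gpnmb (ENSMUSG00000029816, chr6:49036546-49070929), Cd63 (ENSMUSG00000025351, chr10:128900989-128912822) and Lgals3 (ENSMUSG00000050335, chr14:47367751-47386160) are protein-coding genes with no other gene overlapping them. Clec7a (ENSMUSG00000079293, chr6:129461591-129472779) is annotated as a polymorphic pseudogene. Spp1 (ENSMUSG00000029304, chr5:104435118-104441050), Igf1 (ENSMUSG00000020053, chr10:87858265-87937042) and Cd9 (ENSMUSG00000030342, chr6:125460266-125494791) overlap other annotated genes, Igf1 and Cd9 on the opposite strand. The library kit does not mark strand, so the gene of origin of reads in an overlap is not known. Whether such reads were counted for Spp1, Igf1 and Cd9 or left out was not examined.

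Libraries held between 6818809 and 43921030 reads on genes, with 7 of the 8 libraries of 8 months below all others. Replicates 2 and 3 of the 8-month Fmn2-/- mice differed by a chi-square per degree of freedom of 1.62 over genes, less than the 2 runs made of each of 2 cross mice (1.72 and 2.15), while no other pair of mice of a group was below 3.50. They were kept as 2 mice, as labelled. A value of 1.62 does not show that they are separate mice, since 2 runs of 1 mouse also gave 1.72 and 2.15. The results that rest on them are also given with both summed to 1. Levels are given as CPM, read counts scaled to the same library size in all 46 mice. Fmn2 itself, the check of the genotype labels, had a level of 102.5 ± 7.35 CPM in the 3-month Fmn2+/+ mice (SD, n = 5), against 24.8 ± 2.39 in the 3-month Fmn2-/- mice (SD, n = 5). In the cross it was 90.9 ± 6.86 CPM with the label FMN2-/-_APP (SD, n = 7) and 20.5 ± 1.48 with the label FMN2 +/+ APP (SD, n = 9). The Fmn2 level of the cross thus goes against both labels, and every direction drawn from them below holds for the mice as labelled. The summed CPM of 6 dentate granule cell markers was 203 to 245 in the 12 PFC-titled mice and 644 to 1221 in the other 34, and that of 5 cortical projection neuron markers was 432 to 494 against 75.7 to 215, so the PFC-titled libraries followed their titles rather than their tissue label. Thy1, whose promoter drives the transgenes, was 665 to 880 CPM in the 18 dentate gyrus mice without transgene, 1877 to 2413 in the PFC-titled APP mice and 717 to 785 in their wild type controls. In the cross it ran from 782 to 1886, and 3 cross mice, replicates 1 and 7 labelled FMN2-/-_APP and replicate 4 labelled FMN2 +/+ APP, lay within the range of mice without transgene.

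In the dentate gyrus without an amyloid transgene the 9 genes fell into a nearly silent and an expressed set. Cst7, Itgax and Clec7a were close to absent in the dentate gyrus of all 18 mice without transgene, at 0 to 0.310, 0 to 0.641 and 0 to 0.434 CPM. A library without a single read allows up to 0.0683 to 0.440 CPM at these depths, counting 3 reads as the upper limit for counting error only, so most of these levels were at or near the limit of detection. The other 6 genes had reads in every mouse of every group. Per kilobase of exon, Cd9 was the highest of the 9 in 3-month Fmn2+/+ mice at 17.7 RPKM (CPM per kilobase), followed by Cd63 at 3.92, Spp1 at 2.69, Igf1 at 1.50, Gpnmb at 0.866 and Lgals3 at 0.765, with Cst7, Clec7a and Itgax at 0.106, 0.0861 and 0.0634. The first 6 places were the same in the other 3 dentate gyrus groups without transgene. In the PFC-titled wild type mice Lgals3 was low as well, at 0.157 to 0.312 CPM, overlapping the range of Itgax there, and per kilobase it stood below Cst7, at 0.110 against 0.149 RPKM. In the PFC-titled APP mice Cst7 led at 36.1 RPKM, ahead of Cd9 at 20.3, Cd63 at 5.77 and Clec7a at 4.71. In whole tissue a change in the number of microglia and a change in RNA per cell cannot be told apart, and none of the files measures plaques.

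**Figure D1:**
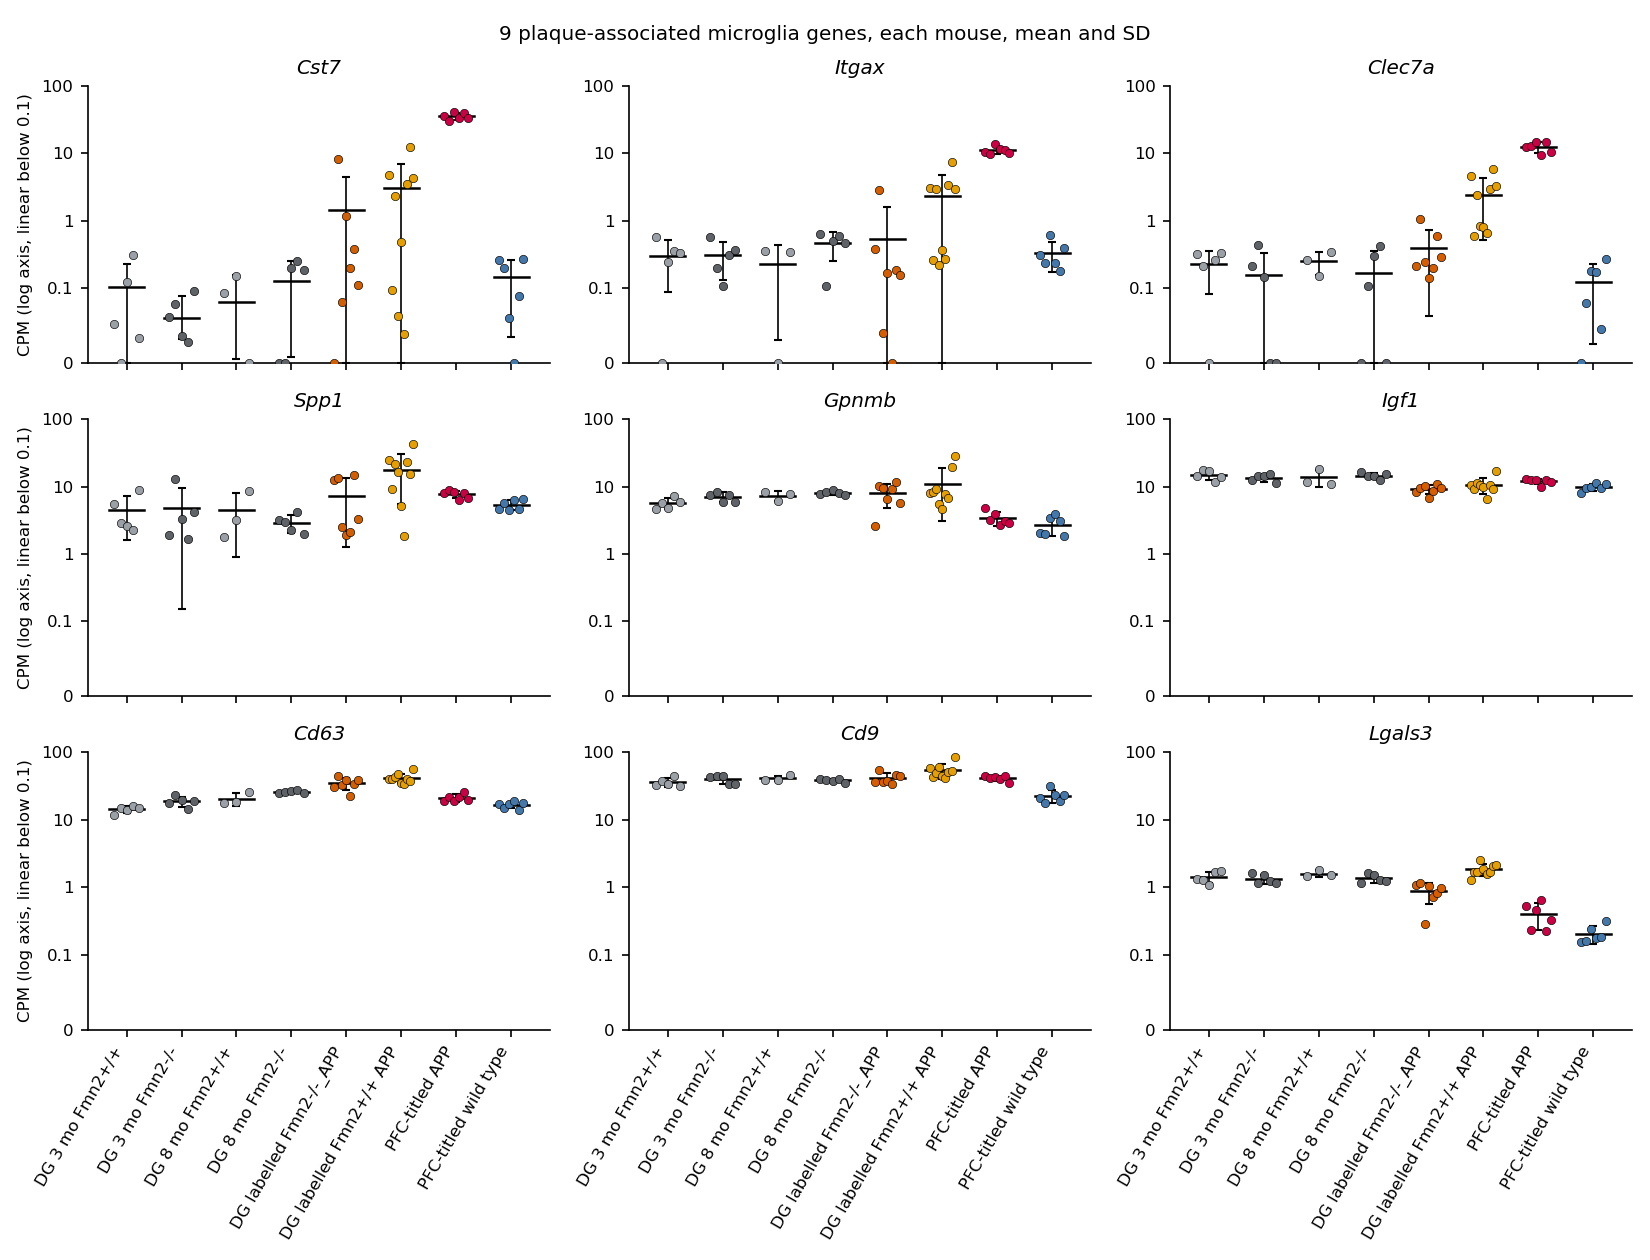
Levels of the 9 genes in each of 46 mice, with 1 panel per gene. The vertical axis is CPM on a log scale that turns linear below 0.1, points are mice, horizontal bars are group means and whiskers are the SD, cut at 0. Cst7, Itgax and Clec7a are above 9 CPM in all 6 PFC-titled APP mice and below 0.7 CPM in every mouse without transgene, while the cross mice spread from 0 to 12.4 CPM, whereas the other 6 genes are present in every group.

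Amyloid in the PFC-titled mice came with large differences in 3 of the genes and smaller ones in the rest. The question here is how each gene stood in 4-month APP mice against wild type mice of the same experiment, 6 of each. All APP libraries were sequenced on lane 7 and all wild type libraries on lane 5, so lane and genotype cannot be told apart. Of 16733 genes tested, 392 (2.34%) were called, at an adjusted p under 0.05 and a log2 fold change of at least 0.5 in size, and 2.19% were called higher. Of the 9 members 8 were tested and 5 were called, all higher. Because the members were picked with this comparison in view, nothing is read from that count. The median log2 fold change of the 8 tested members was 0.70, against 0.00 (-0.000415) over all genes tested.

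Cst7, which encodes cystatin F, an inhibitor of the cathepsins that activate other lysosomal proteases, was between 30.1 and 41.3 CPM in the APP mice, with a median of 34.5. In the wild type mice it was between 0 and 0.268 CPM with a median of 0.146, resting on 19 reads in all 6 libraries together against 5957 in the APP mice. The ranges were far apart, and the log2 fold change was 7.81 (standard error, SE, 0.19), or 224-fold. Clec7a, the beta-glucan receptor dectin-1, which signals through Syk and Card9, was between 9.42 and 14.7 CPM in APP mice with a median of 12.7, and between 0 and 0.268 in wild type mice with a median of 0.128. Its log2 fold change was 6.61 (SE 0.26), or 97.9-fold, again without overlap. Itgax, the integrin alpha chain Cd11c, which pairs with Itgb2, was between 9.96 and 13.7 CPM in APP mice with a median of 10.9, and between 0.180 and 0.608 in wild type mice with a median of 0.277. Its log2 fold change was 5.11 (SE 0.18). All 6 APP mice were high for these 3 genes, and replicate 3 was the highest for each of them.

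The tetraspanin Cd9, an organiser of membrane proteins, was between 34.7 and 45.4 CPM in APP mice with a median of 42.4, and between 17.9 and 31.3 in wild type mice with a median of 22.1. It was the only other member without overlap between the groups, at a log2 fold change of 0.89 (SE 0.11). Over all genes tested 2.43% were higher without overlap. Spp1, the secreted adhesion protein osteopontin, was between 6.26 and 8.77 CPM (median 8.09) against 4.44 to 6.56 (median 5.24), a log2 fold change of 0.52 (SE 0.12) with overlapping ranges. The tetraspanin Cd63 of late endosomes and lysosomes differed by 0.37 on the log2 scale (SE 0.09), Gpnmb, a glycoprotein of lysosome-rich phagocytes, by 0.35 (SE 0.19), and Igf1, insulin-like growth factor 1, by 0.30 (SE 0.09). These 3 were below the threshold and their ranges overlapped. Lgals3, the galectin that binds damaged lysosomes, had too few reads to be tested, 65 in the APP and 25 in the wild type libraries, with 0.403 ± 0.172 CPM (SD, n = 6) against 0.205 ± 0.0612 (SD, n = 6).

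Other microglial genes were higher in the same APP mice, beside which the members stand. Of 23 tested genes of a wider list of plaque-associated genes, 15 were called higher and none lower, with a median log2 fold change of 0.95. The largest were in the chemokines Ccl3 (5.58, SE 0.34), Ccl4 (4.72, SE 0.48) and Ccl6 (3.37, SE 0.16) and in the surface antigen Cd52 (2.77, SE 0.12). Among 25 tested partners of the members, 8 were called higher and none lower, with a median of 0.15. These included Lgals3bp, which encodes a ligand of the Lgals3 protein (2.04, SE 0.14), Itgb2, which encodes the partner chain of Itgax (1.63, SE 0.10), and the transcription factors Runx1 (1.30, SE 0.19) and Spi1, which encodes PU.1 (1.01, SE 0.11). Of the Igf1 partners in that list, the receptor Igf1r and the binding proteins Igfbp2, Igfbp3, Igfbp4 and Igfbp5, none was called, at -0.13 to 0.15. Both lists were chosen with earlier results of these data known.

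Markers of microglia in general moved with the members. Of 12 homeostatic microglia genes 10 were called higher and none lower, with a median of 0.77, among them Fcrls (1.23, SE 0.08), Olfml3 (1.18, SE 0.08) and Gpr34 (1.04, SE 0.07). Their summed level was 617 to 796 CPM in APP and 387 to 426 in wild type mice. All 11 pan-myeloid genes were called higher, among them Ptprc (1.63, SE 0.11), Cd14 (1.61), Irf8 (1.45) and C1qa (1.33), with summed levels of 348 to 453 against 170 to 179 CPM. The log2 fold changes of Cst7, Clec7a and Itgax were above the highest in both marker lists, 1.23 and 1.63, and those of Cd9, Spp1, Cd63, Gpnmb and Igf1 were below their medians or, for Cd9, between them. None of 6 tested markers of border-associated macrophages was called by edgeR or DESeq2, and the summed level of 7 blood leukocyte markers was at most 1.77 CPM in both groups. All 7 markers of oligodendrocytes, which express Cd9 and Cd63 too, had log2 fold changes below 0, with summed levels of 1394 to 2125 against 2255 to 6330 CPM. The part of these cell types in the members' values was not tested.

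**Figure D2:**
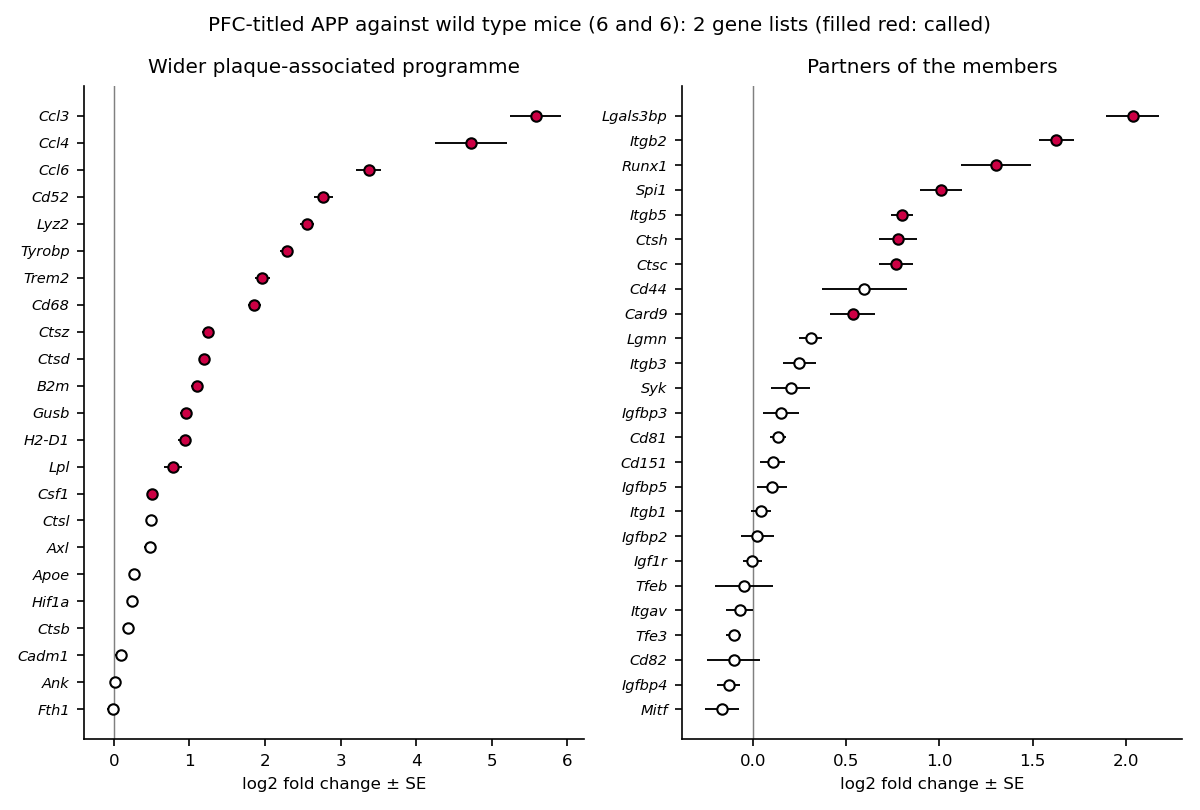
Log2 fold change with standard error of each tested gene of the wider plaque-associated list and of the members' partners in PFC-titled APP against wild type mice, 6 of each. Filled points passed the threshold, 15 of 23 and 8 of 25 genes.

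In the dentate gyrus of the cross the same 3 genes varied from mouse to mouse. Among the 9 mice labelled FMN2 +/+ APP, Cst7 was 12.4, 4.81, 4.34, 3.48 and 2.31 CPM in replicates 8, 1, 9, 7 and 3, and 0.480, 0.0983, 0.0627 and 0.0391 in replicates 5, 2, 4 and 6. Itgax separated the same mice, with 7.46, 3.38, 3.07, 2.95 and 2.92 CPM in replicates 8, 7, 1, 9 and 3 and 0.219 to 0.369 in the other 4. Clec7a did so too, with 5.97, 4.58, 3.28, 2.96 and 2.39 CPM in replicates 8, 1, 9, 7 and 3 and 0.590 to 0.846 in the other 4. For all 3 genes these 9 mice thus fell into 5 with a level of over 2 CPM and 4 below 1 CPM, and all of them were below the 6 PFC-titled APP mice.

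Among the 7 mice labelled FMN2-/-_APP, Cst7 was 8.33 CPM in replicate 2, 1.18 in replicate 4 and 0 to 0.378 in the other 5. Itgax was 2.90 CPM in replicate 2 and 0 to 0.380 in the other 6. Clec7a was 1.07 CPM in replicate 2, 0.605 in replicate 6 and 0.144 to 0.291 in the other 5. Replicate 2 was thus the highest for all 3 genes, and also for Cd63, Cd9 and Lgals3. Above the highest dentate gyrus mouse without transgene lay 9 of the 16 cross mice for Cst7, 6 for Itgax and 11 for Clec7a.

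The level of Thy1 went along with these values. In the 7 cross mice with the highest Thy1, 1353 to 1886 CPM, Cst7 was 1.18 to 12.4 CPM, and in the other 9, with Thy1 from 782 to 1270, it was 0 to 0.480. These 7 were replicates 2 and 4 labelled FMN2-/-_APP and replicates 1, 3, 7, 8 and 9 labelled FMN2 +/+ APP. Itgax reached 7.46 and Clec7a 5.97 CPM in them, against at most 0.380 and 0.846 in the other 9. Replicate 4 labelled FMN2-/-_APP went against the pattern, with Thy1 at 1655 but Itgax at 0.168 and Clec7a at 0.144 CPM. The 3 cross mice with Thy1 in the range of mice without transgene had 0 to 0.112 CPM of Cst7. The division at a Thy1 level of 1300 was drawn after the values were seen, it is not a grouping of the study, and no test was made of it.

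**Figure D3:**
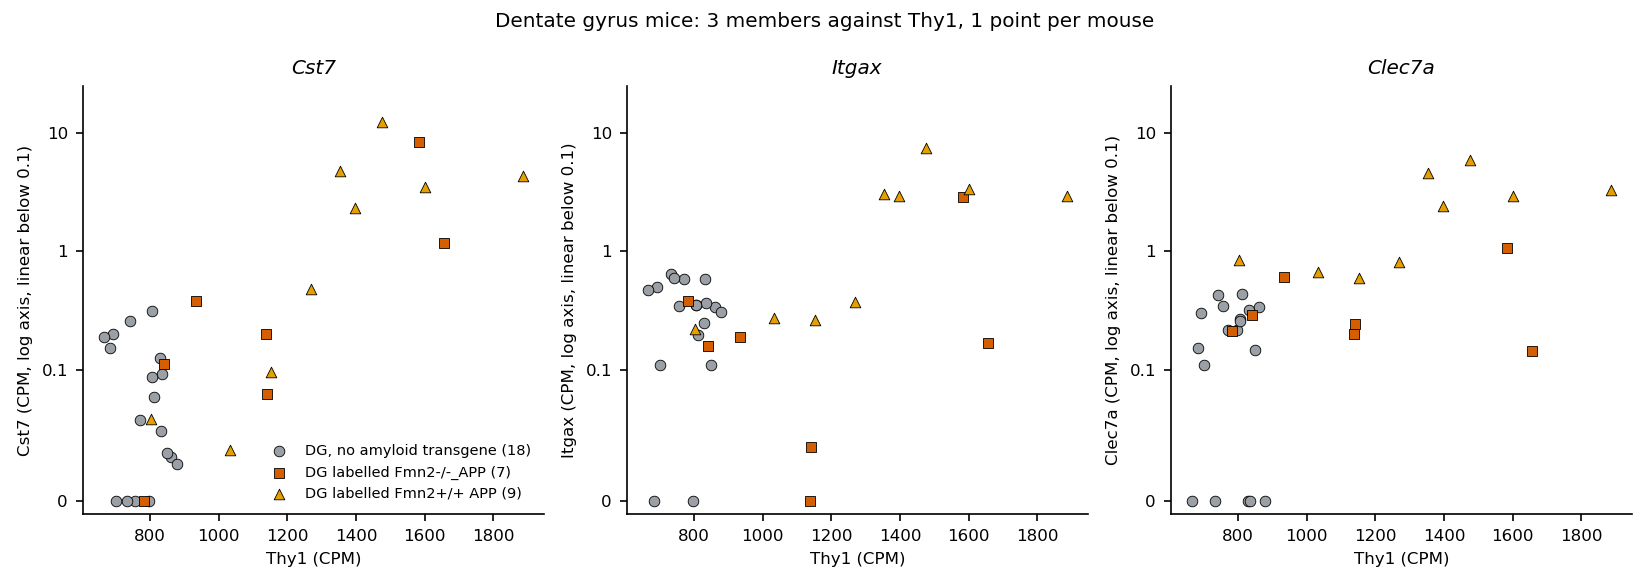
Cst7, Itgax and Clec7a (vertical axis, CPM, log scale that turns linear below 0.1) against Thy1 (horizontal axis, CPM) in the 34 dentate gyrus mice, 1 point per mouse. The 18 mice without transgene lie between 665 and 880 CPM of Thy1 near the floor, and the cross mice with Cst7 above 1 CPM lie at 1353 CPM of Thy1 or above.

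The other 6 genes followed this division in part or not at all. Spp1 in mice labelled FMN2 +/+ APP was 43.0, 25.2, 22.9, 21.7, 16.4 and 15.2 CPM in replicates 9, 1, 7, 3, 4 and 8, then 9.08, 5.25 and 1.88 in replicates 2, 5 and 6. In mice labelled FMN2-/-_APP it was 14.8, 13.4 and 12.7 CPM in replicates 6, 2 and 1 and 1.90 to 3.36 in the other 4. Spp1 was thus high in replicate 4 of the first and replicates 1 and 6 of the second group, whose Cst7 was 0 to 0.378 CPM. The summed level of 6 meningeal fibroblast markers, another known source of Spp1 message, was 446 CPM in that replicate 4 and 234 and 378 CPM in replicates 1 and 6, against 63.7 to 145 in the 4 mice labelled FMN2-/-_APP with low Spp1. Over all 9 mice labelled FMN2 +/+ APP, those with low Spp1 included, the sum ran from 138 to 446 CPM with a median of 365. Without a transgene, the highest Spp1 levels of their groups, 12.9 CPM in replicate 2 of 3-month Fmn2-/- and 8.63 CPM in replicate 3 of 8-month Fmn2+/+ mice, likewise stood in the libraries with the highest meningeal sum of their group, 342 and 399 CPM. In 3-month Fmn2+/+ mice, however, the highest Spp1, 8.88 CPM in replicate 5, came with a meningeal sum of 205 CPM against up to 220 in the group. The part of these cells in Spp1 was not tested.

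Gpnmb was 28.1 and 19.7 CPM in replicates 9 and 8 labelled FMN2 +/+ APP and 4.58 to 9.37 in the other 7, and 2.59 to 11.6 in the mice labelled FMN2-/-_APP. Igf1 was 6.65 to 17.0 CPM (median 10.4) and 6.82 to 11.1 (median 9.67). Cd63 was 34.5 to 56.4 CPM (median 40.1) and 22.7 to 44.9 (median 33.5), and Cd9 was 41.4 to 85.8 (median 50.6) and 34.5 to 55.2 (median 38.0). Replicate 9 labelled FMN2 +/+ APP had the highest level of its group in 5 genes, Spp1, Gpnmb, Igf1, Cd63 and Cd9, replicate 8 in Cst7, Itgax and Clec7a, and replicate 6 had the lowest in 5 of the 9 genes.

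Fmn2 genotype among amyloid mice was compared as the mice labelled FMN2-/-_APP against those labelled FMN2 +/+ APP, where a lower value means lower in the former, whose measured Fmn2 level was the higher one. Of 16656 genes tested 129 (0.774%) were called, 56 of them lower (0.336%). Of 8 members tested, 2 were called, Clec7a and Lgals3, both lower, and all 8 had log2 fold changes below 0, with a median of -0.76 against 0.01 (0.00574) over all genes. The gene group was proposed with these mice in view. Its count, its median and the p-values of its members between these labels are therefore not independent support. The p-values from here on were computed by the quasi-likelihood F-test of edgeR and adjusted over all genes tested after Benjamini and Hochberg, and they measure only the spread between these mice.

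Clec7a had a log2 fold change of -2.68 (SE 0.58, adjusted p = 0.0267), with overlapping ranges, 0.144 to 1.07 against 0.590 to 5.97 CPM. Lgals3 in the mice labelled FMN2-/-_APP was 0.285 CPM in replicate 3 and 0.725 to 1.16 in the other 6, with a median of 0.964, and in those labelled FMN2 +/+ APP it was 1.27 to 2.57 with a median of 1.70. Its groups did not overlap, as for 0.186% of all genes in this direction, and its log2 fold change was -1.07 (SE 0.22, adjusted p = 0.0227). Lgals3 was the member whose level set the 2 groups apart in every mouse, although replicate 4 labelled FMN2 +/+ APP, which had the highest Lgals3 level, had a Cst7 level within that of mice without transgene. The level of Lgals3 in dentate gyrus mice without transgene, 1.09 to 1.82 CPM, lay between the 2 groups and overlapped both.

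Both calls ended when the 3 libraries of low Thy1 were left out, at log2 fold changes of -2.59 for Clec7a (adjusted p = 0.0905) and -1.11 for Lgals3 (adjusted p = 0.0638). Without replicates 4 and 5 labelled FMN2 +/+ APP, whose choroid plexus markers summed to 9152 and 6007 CPM against at most 378 CPM in the other cross mice, Lgals3 was at -0.99 (adjusted p = 0.0732) and Clec7a at -2.94 (adjusted p = 0.0296). The call of Clec7a also ended without any 1 of replicates 1, 3, 4 and 5 labelled FMN2-/-_APP or replicate 1 labelled FMN2 +/+ APP, with adjusted p-values of 0.0521, 0.0532, 0.0509, 0.0583 and 0.0548, while that of Lgals3 held in all 16 such fits.

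The other members passed no threshold between the 2 labels. Spp1 was at -1.30 (SE 0.56, adjusted p = 0.252), Cst7 at -1.13 (SE 1.09, adjusted p = 0.655), Gpnmb at -0.45 (SE 0.37, adjusted p = 0.580), Cd9 at -0.39 (SE 0.14, adjusted p = 0.163), Cd63 at -0.26 (SE 0.12, adjusted p = 0.304) and Igf1 at -0.20 (SE 0.15, adjusted p = 0.546). Without replicate 2 labelled FMN2-/-_APP, the mouse with the most Cst7 of its group, Cst7 was at -3.19 (SE 1.11, adjusted p = 0.133), and without replicate 8 labelled FMN2 +/+ APP, which had the most of the other group, at -0.44 (SE 1.08, adjusted p = 0.878). With a lane term it was at 0.13 (SE 1.13, adjusted p = 0.974), so its direction is not settled. Itgax was below the count filter, and without that filter it was at -2.15 (SE 0.86, adjusted p = 0.309). At an unadjusted p under 0.05 stood Clec7a, Lgals3, Cd9 and Spp1 of the 8 tested, against 16.6% of all genes. By edgeR and by DESeq2, 0 of 21 tested genes of the wider plaque-associated list, 0 of 25 partners, 0 of 12 homeostatic microglia genes and 0 of 11 pan-myeloid genes were called, with 7, 8, 3 and 4 of them at an unadjusted p under 0.05, to be read against the same 16.6%. The summed homeostatic level was 338 to 494 CPM in mice labelled FMN2-/-_APP and 372 to 504 in the others, and that of oligodendrocyte markers 1687 to 2967 and 1234 to 1985. Among markers of other cells, all 7 of border-associated macrophages, all 6 of meningeal fibroblasts and all 6 of choroid plexus had log2 fold changes below 0, with medians of -0.41, -0.68 and -2.63, and none of them was called by edgeR, while DESeq2 called 1 meningeal and 1 choroid plexus marker. At an unadjusted p under 0.05 stood 0, 2 and 6 of them. Of 7 astrocyte markers 4 were above and 3 below 0, from -1.11 to 0.21. None of the 7 was called by edgeR, 1 was by DESeq2, and 3 were at an unadjusted p under 0.05. All 7 oligodendrocyte markers were above 0, with a median of 0.44 and none called by edgeR, 1 by DESeq2 and 7 at an unadjusted p under 0.05. The precursor marker Olig2 (0.57, adjusted p = 0.0347) and the granule cell marker C1ql2 (0.59, adjusted p = 0.0426) were called higher. The part of these cell types in the 2 calls was not tested.

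**Figure D4:**
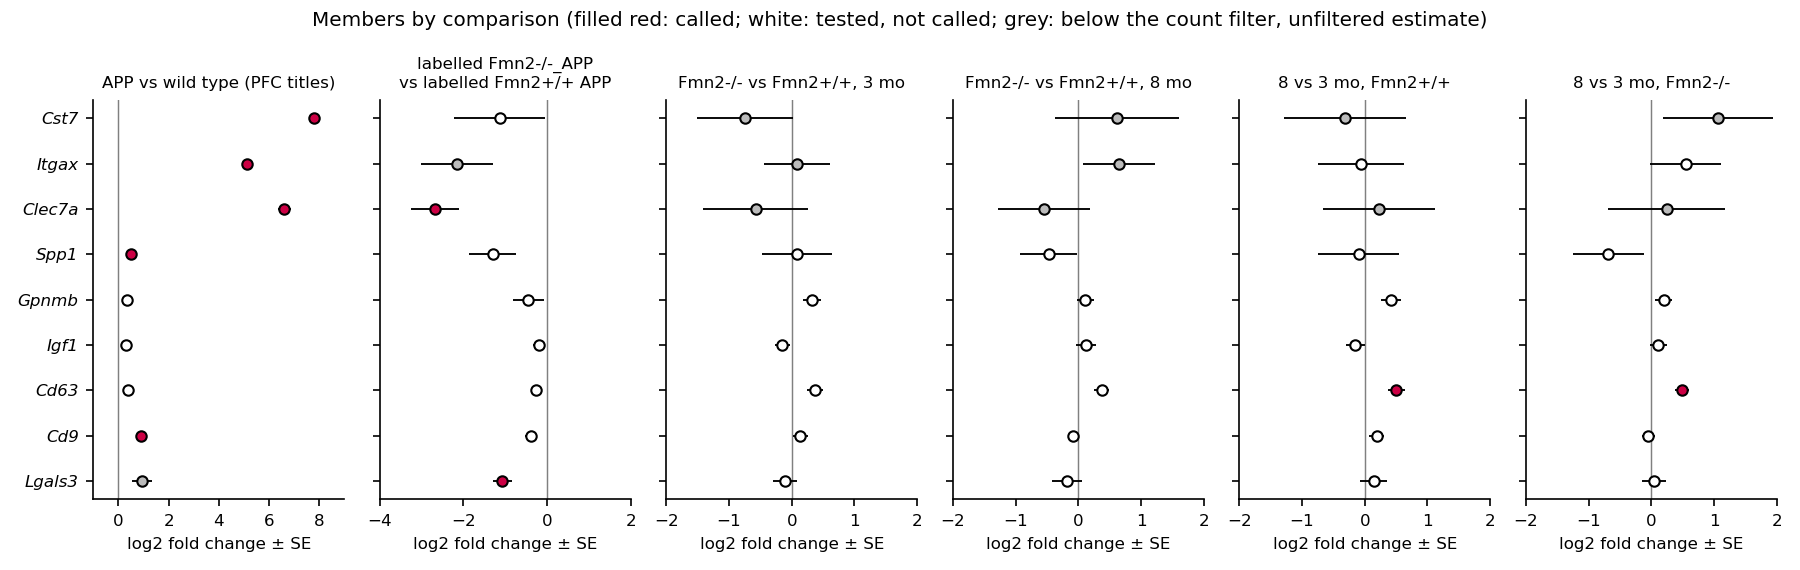
Log2 fold change with standard error of each of the 9 genes in 6 comparisons, with separate horizontal scales. Filled red points were called, white points were tested and not called, and grey points were below the count filter. Cst7, Clec7a and Itgax lie between 5.11 and 7.81 in the PFC-titled APP mice, Clec7a and Lgals3 are called lower in the mice labelled FMN2-/-_APP, and Cd63 is called higher at 8 months in both genotypes.

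Without amyloid, Fmn2 genotype changed none of the members past the threshold at either age. The threshold here was an adjusted p under 0.05 with a log2 fold change of at least 0.25 in size. At 3 months 5 of 16630 genes were called (0.0301%) and 0 of 6 members tested, with Cd63 and Gpnmb at an unadjusted p under 0.05, as were 10.5% of all genes. Cd63 was 17.7, 23.1, 19.5, 14.2 and 19.3 CPM in the 5 Fmn2-/- mice and 11.8, 15.0, 14.2, 16.2 and 14.9 in the 5 Fmn2+/+ mice. The ranges overlapped through the Fmn2-/- mouse at 14.2 CPM, replicate 5, and the log2 fold change was 0.37 (SE 0.12, adjusted p = 0.328). Gpnmb was at 0.32 (SE 0.15, adjusted p = 0.467). Spp1, Igf1, Cd9 and Lgals3 were within 0.15 of 0 on the log2 scale, at 0.08, -0.15, 0.14 and -0.10. In the 3-month Fmn2-/- mice the sum of 6 choroid plexus markers reached 4132 CPM, with a median of 49.05. At 8 months it reached 608.9 CPM in Fmn2-/- and 223.1 in Fmn2+/+ mice. No member was called at 3 months in any of 10 fits without 1 mouse. The 3-month Fmn2-/- mice also enter the age, interaction and cross comparisons below. The part of choroid plexus in the members' values was not tested.

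At 8 months 166 of 14665 genes were called (1.13%), and 0 of 6 members tested, of which Cd63 had an unadjusted p under 0.05, as had 23.3% of all genes. Cd63 was 25.1, 25.6, 26.9, 28 and 25.1 CPM in Fmn2-/- mice and 17.8, 18.3 and 25.6 in Fmn2+/+ mice. A single Fmn2+/+ mouse, replicate 3, reached the Fmn2-/- range, and the log2 fold change was 0.37 (SE 0.12, adjusted p = 0.112). Without that mouse Cd63 was at 0.56 and called (adjusted p = 0.0275), and also without the filter on low counts, at 0.36 (adjusted p = 0.0482), where 3.93% of genes were called. With replicates 2 and 3 of the Fmn2-/- mice summed to 1, Cd63 was at 0.36 (adjusted p = 0.199). DESeq2 called 0 members at either age. Cst7, Itgax and Clec7a were below the filter at both ages, with 5 to 53 reads per gene and group, and without the filter their adjusted p-values ran from 0.574 to 0.965. Whether the genotype effect differed between ages was tested as an interaction, in which 635 of 17046 genes (3.73%) and 0 of 7 members were called, none at an unadjusted p under 0.05, against 22.9% of all genes, and none by DESeq2. The difference of Cd63 between the ages' genotype effects was -0.01 on the log2 scale (SE 0.18, adjusted p = 0.980).

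Cd63 was higher at 8 than at 3 months in both genotypes. From 3 to 8 months 1570 of 17046 genes were called in Fmn2+/+ mice (9.21%, higher 5.37%) and 1097 in Fmn2-/- mice (6.44%, higher 2.52%). Cd63 was the 1 called member of 7 tested in each. It was 11.8 to 16.2 CPM at 3 months and 17.8 to 25.6 at 8 months in Fmn2+/+ mice, 0.50 on the log2 scale (SE 0.14, adjusted p = 0.0278). In Fmn2-/- mice it was 14.2 to 23.1 and 25.1 to 28 CPM, 0.49 on the log2 scale (SE 0.12, adjusted p = 0.0140). The ages did not overlap in either genotype, as for 9.26% and 3.94% of all genes in this direction. The call in Fmn2+/+ mice ended without replicate 1 or 3 of 3 months or replicate 3 of 8 months, at adjusted p-values of 0.0653, 0.0556 and 0.259, the last with a log2 fold change of 0.30, and that in Fmn2-/- mice held without any 1 mouse. With an offset for gene length and GC content the call in Fmn2+/+ mice also ended, at 0.40 (adjusted p = 0.0755). With the 2 alike Fmn2-/- libraries summed both calls held, at 0.49 (adjusted p = 0.0379) and 0.50 (adjusted p = 0.0283).

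Ages also differed in depth and lane, since 7 of the 8 libraries of 8 months were sequenced on lane 7, with 6818809 to 11675280 reads, and those of 3 months on lanes 5 and 6. Age thus cannot be told apart from lane in Fmn2-/- mice and hardly in Fmn2+/+ mice, and no lane term was fitted for age. With all libraries thinned to the shallowest, Cd63 had larger log2 fold changes but passed the threshold in neither genotype (0.80, adjusted p = 0.0762, and 0.61, adjusted p = 0.141). Gpnmb in Fmn2+/+ mice was at 0.42 (SE 0.16, adjusted p = 0.0903), and 0.51 with a call without replicate 4 of 3 months or replicate 2 of 8 months (adjusted p = 0.0353 and 0.0406). Of the other tested members, Itgax, Spp1, Igf1, Cd9 and Lgals3, none had an unadjusted p under 0.05 in either genotype, against 27.3% of all genes in Fmn2+/+ and 22.6% in Fmn2-/- mice. In the wider plaque-associated list 3 of 21 genes were called higher with age in Fmn2+/+ mice, Tyrobp (0.58, SE 0.11), Gusb (0.30, SE 0.09) and Ctsd (0.26, SE 0.08), with 0 of 21 in Fmn2-/- mice by either tool and 4 of these at an unadjusted p under 0.05. Tyrobp encodes the signalling adaptor of Trem2, and Gusb and Ctsd encode lysosomal enzymes. Of the partners, Ctsc (0.35), the protease activator that Cst7 inhibits, was called in Fmn2+/+ and the integrin chain Itgav (0.36) in Fmn2-/- mice, 1 of 25 in each. Of 12 homeostatic genes, 1 was called lower in Fmn2+/+ mice, Sall1 (-0.34), and 3 were called higher in Fmn2-/- mice, among them Gpr34 (0.52) and Siglech (0.34), and of 11 pan-myeloid genes C1qc (0.46) in Fmn2+/+ mice. These list counts are to be read against the 9.21% of all genes called with age in Fmn2+/+ and 6.44% in Fmn2-/- mice.

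Dentate gyrus mice of the cross were also set against the 3-month mice without transgene whose Fmn2 level was closest. Amyloid and experiment coincide here and cannot be told apart, and the values are a description. In mice labelled FMN2-/-_APP against 3-month Fmn2+/+ mice, 3124 of 17599 genes were called (17.8%, 9.66% higher and 8.09% lower), and 3 of 9 members. Cd63 was higher by 1.27 (SE 0.14), from 14.4 ± 1.65 CPM (SD, n = 5) to 34.8 ± 7.24 (SD, n = 7), without overlap, as for 10.6% of genes. Igf1 was lower without overlap (9.89% of genes), at -0.70 (SE 0.15) but at -0.47 and below the threshold with the length and GC offset, and Lgals3 was lower with overlap, at -0.70 (SE 0.23). Cst7 was at 3.67 (SE 1.52), and at 1.62 without replicate 2 labelled FMN2-/-_APP. Itgax moved from 0.73 (SE 1.04) to -0.84 and Clec7a from 0.76 (SE 0.83) to 0.33 without that mouse.

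In mice labelled FMN2 +/+ APP against 3-month Fmn2-/- mice, 1894 genes were called (10.8%, higher 5.69%), and 5 of 9 members, all higher. These were Cst7 (5.55, SE 1.54), Clec7a (4.03, SE 0.79), Itgax (2.83, SE 0.94), Spp1 (1.90, SE 0.65) and Cd63 (1.15, SE 0.14). Clec7a and Cd63 did not overlap between the groups, as for 4.73% of genes in this direction. Cd9 was at 0.44 (SE 0.14), Lgals3 at 0.47 (SE 0.21), Gpnmb at 0.60 (SE 0.35) and Igf1 at -0.36 (SE 0.14), none of them called. The cross mice in these 2 comparisons are those of the comparison between labels, so the 3 are not independent. Of the wider plaque-associated list, Ccl6 (2.17 and 2.57), Tyrobp (1.19 and 1.13) and Trem2 (0.87 and 0.84) were called higher and Lpl (-1.20 and -0.92), lipoprotein lipase, lower in both, among 5 and 6 of 22 genes called. Of the partners, Cd44 (1.06 and 1.92), a receptor of Spp1, was called higher in both, among 3 and 6 of 25. Of the homeostatic list, Fcrls (2.00 and 2.18) was the largest in both, among 6 and 4 of 12, P2ry12 being lower in the first (-0.59). Markers of other cells differed too. All 11 pan-myeloid genes were above 0 in both comparisons, with 4 and 7 called higher, as were all 7 of border-associated macrophages, with 0 and 1 called. Of 6 meningeal fibroblast markers, 4 and 6 were above 0, with 1 and 2 called higher and 1 and 0 lower. Of 7 astrocyte markers, 4 and 6 were above 0, with 0 and 1 called higher and none lower. All 7 oligodendrocyte markers were below 0 in both, with 3 and 6 called lower. So were all 5 cortical projection neuron markers, with 4 called lower in each and medians of -0.67 and -0.62. In mice labelled FMN2 +/+ APP the oligodendrocyte markers summed to 1234 to 1985 CPM, against 1989 to 3574 in 3-month Fmn2-/- mice. The part of these cell types in the members' values was not tested. Cst7 and Cd63 differed by over 1 on the log2 scale in both comparisons, Cst7 being called in the second only. Cd63 had the smallest standard errors of the 9 members in both, while in the PFC-titled APP mice it differed by 0.37. Cd9 was at 0.20 (SE 0.15) and 0.44 in the cross and at 0.89 in the PFC-titled mice.

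Across the 8 groups the order of the levels was free of overlap at few places. The PFC-titled APP mice came first for Cst7, Itgax and Clec7a, with every mouse above every mouse of the next group, the one labelled FMN2 +/+ APP. For Cd9 the PFC-titled wild type mice came last without overlap, by a narrow margin. Their highest mouse was at 31.3 CPM, and the lowest of the next group, 3-month Fmn2+/+ dentate gyrus, at 31.5. All other neighbours in the order of the 9 genes overlapped. The mice labelled FMN2 +/+ APP had the highest mean of the 8 groups for Spp1, Gpnmb, Cd63, Cd9 and Lgals3. Igf1 had its highest mean in 3-month Fmn2+/+ mice, 14.9 ± 2.3 CPM (SD, n = 5), and its lowest in those labelled FMN2-/-_APP, 9.21 ± 1.41 (SD, n = 7). Gpnmb and Lgals3 had their lowest means in the 2 PFC-titled groups, Lgals3 at 0.403 and 0.205 CPM against 0.870 to 1.85 in the 6 dentate gyrus groups.

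How far the members moved together among mice of 1 group is given as Pearson's r of a gene's log2 CPM with the mean z-score of the other 8, a description in which all points share libraries. Over the 6 PFC-titled APP mice, the 7 mice labelled FMN2-/-_APP and the 9 labelled FMN2 +/+ APP, r was 0.84, 0.96 and 0.71 for Clec7a and 0.82, 0.96 and 0.84 for Cd9. Lgals3 had -0.29, 0.30 and 0.20, the lowest of the 9 in the PFC-titled APP mice and in the mice labelled FMN2 +/+ APP. Cd63 had -0.12, 0.57 and 0.68. Several of these values rest on few mice. Without the 2 mice farthest from the median, r in the mice labelled FMN2-/-_APP was 0.40 for Clec7a, -0.24 for Cst7, -0.18 for Lgals3 and 0.92 for Cd9. In the mice labelled FMN2 +/+ APP it was 0.09 for Cd63 and -0.25 for Lgals3, and in the PFC-titled APP mice it was 0.23 for Lgals3, so that its sign turned in all 3 groups. The 8 other genes with the highest lowest r to the mean of the members over the 3 groups were Ctsh (0.90), Ctsz (0.87), Lyz2 (0.84), C3ar1 (0.79), Renbp (0.78), Lcp1 (0.78), Anxa4 (0.77) and C1qb (0.75). Ctsh and Ctsz encode lysosomal cathepsins, Lyz2 a lysozyme of macrophages, and C3ar1 and C1qb a receptor and a component of complement.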

How the data were processed

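RNA was isolated from whole tissue with TRIZOL and made into TruSeq libraries, with a kit that does not mark strand. The authors aligned reads to mm10 with STAR and counted them per gene with HTSeq in its intersection-non-empty mode, and the values are raw read counts as deposited, 1 table per run. Here 48 runs gave 46 mice, since 2 cross mice had 2 runs, whose counts were summed. Genes were named from GENCODE gene models of mm10 (48349 of 48709 identifiers). Library sizes were 6818809 to 43921030 reads.

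Each comparison was fitted on the groups it involves with edgeR 4.0.16 in R 4.3.3 (filterByExpr, TMM, glmQLFit and glmQLFTest), and 1 fit over the 4 groups without transgene gave the age and interaction values. A gene was called at an adjusted p under 0.05 where its log2 fold change was also at least 0.5 in size (comparisons with amyloid mice) or 0.25 (without). CPM are TMM-normalized. The 9 members are named in every group, and of each gene list up to 4 called genes of largest change, apart from 2 genes that are not reported here. The members and all lists were chosen with earlier results of these data known. Intervals for 0 reads count 3 reads as the floor and cover counting error only. Alternatives were DESeq2 1.42.0, its median-ratio size factors, no filter, a length and GC offset, a replicate block, a lane term, thinning and leaving out each mouse. The mean correlation of deviations between mice of the same replicate number was -0.0362 to 0.0653, which cannot settle whether the numbers pair samples. Another alternative summed replicates 2 and 3 of the 8-month Fmn2-/- mice. The test was checked on simulated counts.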

Additional observations from a re-analysis of the deposited data

Results flagged for a closer look

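In 7 of 63 combinations of a member with a group of 4 to 10 mice, a single mouse lay far above the rest by Dixon's criterion. About 1 of 20 groups meets it by chance where values are normally distributed, which CPM need not be. The combinations also share mice, so nothing is read from the count. Among the mice labelled FMN2-/-_APP, replicate 2 had 8.33 CPM of Cst7 against 1.18 in the next mouse, and 2.9 CPM of Itgax against 0.38. Among those labelled FMN2 +/+ APP, replicate 8 had 12.4 CPM of Cst7 against 4.81 in the next mouse, and 7.46 CPM of Itgax against 3.38. Replicate 9 of the same label had 17 CPM of Igf1 against 11.5, and 85.8 CPM of Cd9 against 60.6. Without a transgene, replicate 2 of the 3-month Fmn2-/- mice had 12.9 CPM of Spp1 against 4.22 in the next mouse. The group of 3 mice, 8-month Fmn2+/+, was too small for this criterion. No member differed between ages in its genotype effect by the interaction test (0 of 7 tested).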

How the results depend on the processing

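The number of members called between the 2 cross labels, 2, was 0 with a replicate block, 0 with the block and a length and GC offset, 0 without the 3 libraries of low Thy1 and 1 without the 2 of high choroid plexus markers, the last 2 chosen after seeing the data. At 8 months it went from 0 to 1 without the count filter. For age it went from 1 to 0 in Fmn2+/+ mice with the length and GC offset and with thinning, and from 1 to 0 in Fmn2-/- mice with thinning. Leaving out 1 mouse at a time gave 1 to 2 members between cross labels, 0 to 1 at 8 months, 0 to 2 for age in Fmn2+/+ mice, 4 to 5 in PFC-titled APP mice, and 2 to 4 and 3 to 5 in the cross against mice without transgene. The replicate block, which drops replicates 8 and 9 labelled FMN2 +/+ APP, gave Clec7a -2.14 (edgeR adjusted p = 0.119) and Lgals3 -1.05 (0.0720). In the cross, mice of the same number shared lanes under both labels, and whether the numbers pair the mice is not settled.

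Signs of members that passed no test turned as follows, in log2 fold change. Between cross labels, Cst7 was 0.129 with a lane term and Gpnmb 0.0749 with the block, 0.0567 with block and offset and 0.143 with the lane term. At 3 months, Spp1 was -0.342, -0.344 and -1.20 with block, block and offset, and lane, Igf1 0.0754 with block and offset and Lgals3 0.174 with lane. At 8 months, Gpnmb was -0.126 with thinning and Igf1 -0.0519 with the offset and -0.0276 with block and offset. In the interaction, Cd63 was 0.0016 with DESeq2, 0.00366 with size factors, 0.22 with the offset and 0.00332 with the alike libraries summed, and with the offset Igf1 was -0.0488 and Lgals3 0.096. For age, Spp1 was 0.00992 with DESeq2, Igf1 0.0339 and Lgals3 -0.000206 with the offset in Fmn2+/+ mice, and Igf1 -0.0149 with the offset and Lgals3 -0.691 with thinning in Fmn2-/- mice. Without 1 mouse, Spp1 ran from -0.685 to 0.528 at 3 months, -1.04 to 0.461 at 8 months, -1.13 to 0.356 in the interaction, and -1.03 to 0.449 and -0.900 to 0.089 for age. Also crossing 0 were Cd9 at 8 months (-0.147 to 0.00324) and for age in Fmn2-/- mice (-0.0931 to 0.00549), Lgals3 there (-0.0218 to 0.120), Cd63 in the interaction (-0.136 to 0.191) and Itgax for age in Fmn2+/+ mice (-0.628 to 0.234). The causes were not tested.

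All genes called between cross labels, 129, were 304 with DESeq2 and 56 without the high choroid libraries. At 3 months, 5 became 91 with DESeq2, 14 without filter, 3 with size factors, offset or lane and 2 with either block. At 8 months, 166 became 733 with DESeq2, 1124 without filter, 9 with the offset, 4 and 5 with the blocks, 3 with lane, 5 with the alike libraries summed and 24 with thinning. The interaction's 635 became 1401 with DESeq2, 399 without filter, 30 with the offset, 227 summed and 6 thinned. For age, 1570 became 1009 with the offset and 440 thinned, and 1097 became 569 and 332. Leaving out 1 mouse gave 73 to 171 between cross labels, 3 to 49 at 3 months, 4 to 3087 at 8 months, 8 to 2791 in the interaction, and 469 to 2994 for age in Fmn2+/+ mice. Of the members' other values in the tested comparisons, 265 kept direction and side of the threshold under these settings and 577 without 1 mouse.

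Depth limits Cst7, Itgax and Clec7a without transgene, where 5 to 53 reads per group were counted, and Lgals3 in the PFC-titled mice.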

Other observations

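The 8 genes that varied most like the members among the amyloid mice had these log2 fold changes in PFC-titled APP against wild type mice. Lyz2 was at 2.56 (SE 0.09), C3ar1 at 1.53 (SE 0.15), C1qb at 1.28 (SE 0.07), Ctsz at 1.24 (SE 0.08), Lcp1, an actin-bundling protein of white blood cells, at 0.82 (SE 0.10), Ctsh at 0.78 (SE 0.10) and Renbp at 0.72 (SE 0.15). Anxa4 was at 0.12 (SE 0.13). They were chosen by their likeness to the members over all genes, so these values are a description. In the same comparison Gfap, the filament protein of reactive astrocytes, was at 2.10 (SE 0.11) and was the 1 called gene of 7 astrocyte markers.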
